A study of Mus musculus with 4 samples.

Results

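The genes described are 10 of the 28585 gene identifiers measured, and all encode proteins of mitochondrial fatty acid oxidation. They were chosen by name for their place in the pathway: Cpt1a and Cpt2 of the carnitine shuttle, the acyl-CoA dehydrogenases Acadvl, Acadl and Acadm, the trifunctional protein subunits Hadha and Hadhb, and Etfa, Etfb and Etfdh of the electron transfer flavoprotein system. They were measured by bulk RNA sequencing in 4 libraries of PMN-MDSCs, polymorphonuclear myeloid-derived suppressor cells, which are neutrophil-like cells that restrain immune responses. The cells were sorted from mouse spleen on postnatal day 7 as CD11b+ Ly6C low or negative Ly6G+ cells, with 300000 cells per library. The genotypes compared were both on a C57BL/6J background. Dhps cko pups carried Dhps fl/fl alleles and Lysm cre, in which the Lysm (Lyz2) locus drives Cre in myeloid cells, and Dhps flox littermates carried Dhps fl/fl without Cre. Each genotype had 2 libraries. The labels name no treatment, pups of both sexes were used in the study, and the labels do not say whether a library came from 1 pup or from pooled pups, so p-values measure only the spread between these libraries. Lysm cre also acts in monocytes, macrophages and neutrophils, so the deletion was not particular to the sorted cells.

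Fatty acids enter the mitochondrion as carnitine esters. CPT1 on the outer membrane makes the ester and is the step that malonyl-CoA inhibits, a translocase carries it across, and CPT2 on the inner membrane restores the acyl-CoA. Repeated rounds of dehydrogenation, hydration, a further dehydrogenation and thiolysis then shorten the chain, and the electrons of the first dehydrogenation leave through the electron transfer flavoprotein to ubiquinone. Neutrophils are known for their reliance on glycolysis, while fatty acid oxidation has been linked to immature neutrophils and to the suppressive function of MDSCs. DHPS, deoxyhypusine synthase, uses spermidine to modify the translation factor eIF5A, so the comparison asked how these genes stood in myeloid cells in which Dhps was targeted.

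The sequences between and before the starts of 3 of these genes are shown for description. Hadha and Hadhb start back to back yet differed in level, and Cpt1a was the member that differed most between genotypes. Any link of these sequences to level or genotype was not tested. On GRCm38, Hadha (chromosome 5, 30118304 to 30155162, minus strand) and Hadhb (30155248 to 30184593, plus strand) have outermost GENCODE M21 starts 86 bases apart. The stretch between them, chr5:30155163-30155247, is given on the plus strand from RefSeq promoter sequence (GRCm38.p6). Cpt1a lies on chromosome 19 from 3322334 to 3385733 on the plus strand, and the 250 bases before its RefSeq start, chr19:3323051-3323300, follow. GENCODE has a start further upstream, so this stretch is inside the bounds of the gene, and its last 16 bases are in an exon of a GENCODE transcript. Capitals mark the GC box letters GGGCGG, or CCGCCC where the match is on the minus strand, and CCAAT.
Hadha-Hadhb gap: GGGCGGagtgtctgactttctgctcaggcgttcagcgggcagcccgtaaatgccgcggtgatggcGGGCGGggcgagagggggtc
Cpt1a upstream: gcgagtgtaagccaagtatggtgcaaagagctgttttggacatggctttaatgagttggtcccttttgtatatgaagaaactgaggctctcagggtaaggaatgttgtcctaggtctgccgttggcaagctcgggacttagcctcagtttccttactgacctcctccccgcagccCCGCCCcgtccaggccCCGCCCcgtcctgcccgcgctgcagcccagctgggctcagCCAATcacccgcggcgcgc
The Hadha-Hadhb gap held 2 GGGCGG matches and no CCAAT, with a GC content of 69.4%. The Cpt1a stretch held 2 GGGCGG matches and 1 CCAAT, with a GC content of 59.6%. In windows of 300 bases, 250 before the start and 50 after, GGGCGG was found on either strand for 7 of the 10 genes (Acadl, Cpt1a, Cpt2, Etfb, Etfdh, Hadha and Hadhb) and in 35.7% of the 32851 RefSeq windows. Hadha and Hadhb start so near each other that their windows overlap, so their matches are not separate cases. CCAAT was found for 4 of 10 (Cpt1a, Etfa, Etfb and Etfdh) and in 37.4% of windows. The letters AGGTCA repeated in the same direction after 1 free base, the direct repeat that PPAR-RXR dimers are known to bind, were in 0.0396% of windows and in none of the 10. AAGGTCA, letters of the estrogen-related receptor motif, was found for Acadm alone among the 10 and in 4.72% of windows. The letters AAGGTCA can overlap the direct repeat. Such matches describe letters in a window and are not binding sites.

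Values are FPKM, fragment numbers divided by the length of the transcript and the size of the library. The FPKM of a library summed to between 304281 and 319286, and between 10611 and 10729 genes were at 1 FPKM or above. From the steps between low values, depth was about 29950000 to 32000000 fragments per library, which puts each of the 10 genes at about 420 to 2960 fragments in a library and the counting error at 2.04% to 4.86%. These figures are approximate, since only 40.4% to 44.0% of the low values were within 0.15 of a whole step, against 30% for an even spread. Neutrophil markers were abundant, with S100a9 between 24504 and 28033 FPKM and Ngp between 26339 and 27902. Dhps itself was at 2.38 and 2.59 FPKM in the Dhps cko libraries and at 3.57 and 3.11 in Dhps flox. Both Dhps cko values were below both Dhps flox values, at 74.4% of the Dhps flox mean (log2 fold change -0.41, SE 0.13, limma, unadjusted p = 0.0256, adjusted p = 0.629). The difference did not pass the adjusted threshold, and Dhps transcript was still measured in both Dhps cko libraries.

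Results revealed no difference past the adjusted threshold in any fatty acid oxidation gene between Dhps cko and Dhps flox PMN-MDSCs, and Cpt1a alone had an unadjusted p under 0.05. All 10 genes were detected in every library and all passed the low-value filter, a mean of at least 0.1 FPKM. None of the 10 had an adjusted p under 0.05 (limma, Benjamini-Hochberg over 17948 genes), where 0.00557% of all genes, Gm20716 alone, did. That call was lost without each library in turn, with a pseudocount of 0.01, with no filter and with a replicate block. By unadjusted p under 0.05 the count was 1 of 10, the lower Cpt1a, against 7.0% of all genes (4.72% higher and 2.28% lower in Dhps cko). Both Dhps cko values were above both Dhps flox values for 2 of the 10, Cpt2 and Etfdh, against 20.0% of all genes, and below them for 1, Cpt1a, against 16.0%. The shares of the 10 genes were thus near those of the background, and for the other 7 the genotypes overlapped. The count of 2 higher genes was 1 after rescaling to TPM (the same values scaled to an equal sum in every library), against 16.2% of all genes, and 1 with size factors, against 19.1%. With 3 libraries, a weaker rule that more genes meet, it was 6 of 10 without Dhps cko replicate 2, against 36.1% of all genes, and 4 without Dhps flox replicate 1, against 36.6%. It was 2 without Dhps cko replicate 1, against 32.3%, and 2 without Dhps flox replicate 2, against 37.1%. On the log2 scale the 10 genes had a median change of -0.0022, against 0.01 over all genes, with 5 above 0 and 5 below. Rescaling to TPM moved the share of higher genes among those with unadjusted p under 0.05 from 67.4% to 56.4%. An exact permutation test of 2 against 2 libraries cannot go below p = 0.33, so it could not separate any gene.

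**Figure D1:**
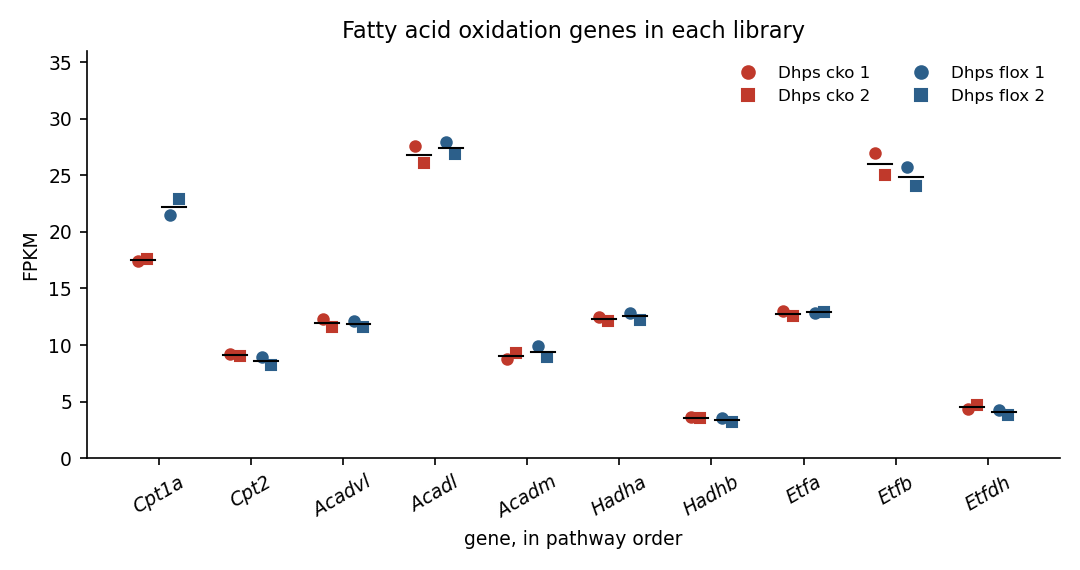
FPKM (vertical axis, linear from 0) of each of the 10 fatty acid oxidation genes in pathway order, with circles and squares for replicates 1 and 2 of Dhps cko (red) and Dhps flox (blue), and black bars for the mean of each genotype. The points of each gene lie close together apart from Cpt1a, where the Dhps cko libraries sit at 17.44 and 17.64 and the Dhps flox libraries at 21.45 and 22.92.

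The carnitine shuttle held the gene with the widest gap. Cpt1a (ENSMUSG00000024900), the liver-type isoform of the outer membrane enzyme and the controlled entry step, was at 17.44 and 17.64 FPKM in Dhps cko and 21.45 and 22.92 in Dhps flox. The Dhps cko libraries were both lower, with means of 17.5 ± 0.141 against 22.2 ± 1.04 (SD, n = 2 each). This was 79.1% of the Dhps flox level (log2 fold change of FPKM + 0.1, -0.34, SE 0.07), with a 95% interval of 70.4% to 89.1%. Its unadjusted p was 0.00379 and its adjusted p 0.488 in limma, and 127 genes had a smaller p, so Cpt1a did not pass the threshold. The unadjusted p of Cpt1a was under 0.05 with each pseudocount, filter and scaling tried and without each library in turn, and the adjusted p ranged from 0.315 to 0.962. Cpt2 (ENSMUSG00000028607; chromosome 4, 107903981 to 107923610, minus strand), the inner membrane partner, was at 9.24 and 9.03 FPKM in Dhps cko and 8.97 and 8.26 in Dhps flox. Both Dhps cko values were slightly above both Dhps flox values, at 106.0% of the Dhps flox level (interval 91.8% to 123%, adjusted p = 0.861). The Cpt1a to Cpt2 ratio within a library was 1.89 and 1.95 in Dhps cko and 2.39 and 2.78 in Dhps flox. Cpt1a relative to the summed FPKM of the other 9 genes was 0.147 and 0.155 in Dhps cko and 0.182 and 0.205 in Dhps flox. That sum was 118.25 and 113.97 FPKM in Dhps cko and 118.13 and 111.94 in Dhps flox, and overlapped between the genotypes.

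Cpt1a was nearly the whole of the CPT1 transcript in these cells. Cpt1b, the muscle-type isoform, was at 0.51 and 0.52 FPKM in Dhps cko and 0.37 and 0.42 in Dhps flox, and Cpt1c, the brain-type isoform, was between 0.02 and 0.07 FPKM and below the filter. The Cpt1a to Cpt1b ratio was 34.2 and 33.9 in Dhps cko and 58.0 and 54.6 in Dhps flox. Cpt1b did not pass the test (log2 fold change 0.32, SE 0.26, adjusted p = 0.833). The translocase Slc25a20, which exchanges acylcarnitine for carnitine, was at 7.17 and 7.06 FPKM in Dhps cko and 8.13 and 7.17 in Dhps flox. Its genotypes touched at 7.17, with an adjusted p of 0.857. Cpt1b, Cpt1c and Slc25a20 were named here for their place beside Cpt1a, after their values were seen.

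Several marker lists also stood at unlike levels in the genotypes, most of them in the direction opposite to Cpt1a. No list was tested as a whole, and no marker in any list passed the adjusted threshold. The counts below at unadjusted p under 0.05 stand against 4.72% of all genes higher and 2.28% lower in Dhps cko. B cell markers were higher in Dhps cko for 8 of 8 genes by fold change, 6 of them with unadjusted p under 0.05, with a summed level of 67.5 to 70.4 FPKM against 43.2 to 52.4. Monocyte and macrophage markers summed to 193.3 to 199.8 FPKM against 159.0 to 161.5, with 9 of 10 above 0 and 4 with unadjusted p under 0.05, and T cell markers to 14.98 to 18.5 against 8.01 to 11.9, with 8 of 8 above 0 and 3 with unadjusted p under 0.05. No marker of these 3 lists was at 0 in any library, and the highest of each list were Ighm, Cd68 and Trbc2. Neutrophil markers stood at a median of 0.11 on the log2 scale, and 12 of 14 were above 0, 2 of them with unadjusted p under 0.05. These were the sort marker Ly6g, at 222 and 242 FPKM in Dhps cko and 195 and 185 in Dhps flox, and Cebpe, a granulocyte transcription factor, at 298 and 266 against 235 and 247. The list summed to 80043 and 82489 FPKM in Dhps cko and 79725 and 75317 in Dhps flox. The part of these cells in the Cpt1a value was not tested, and in bulk RNA fewer cells of a type and less RNA per cell cannot be told apart. Muscle and fat markers, tissues rich in fatty acid oxidation, summed to 148 and 178 FPKM in Dhps cko and 216 and 117 in Dhps flox and overlapped. Acta1 made up most of that sum, Fabp3 and Cidea were at 0 in some libraries, and Ucp1 was at 0 in both Dhps flox libraries. Of the hepatocyte markers, Alb was at 0 to 0.14 FPKM and Fgb at 0 in every library, and 2 of the 4 tested were above 0 and 2 below. The list summed to 8.34 and 5.7 FPKM in Dhps cko and 4.61 and 3.0 in Dhps flox, with Apoa1 alone at unadjusted p under 0.05. Apoa1, the highest, was at 6.69 and 4.37 in Dhps cko and 2.04 and 1.87 in Dhps flox, and Hnf4a at 0.37 and 0.24 against 1.39 and 0.24. Intestinal epithelium markers summed to 35.7 and 23.8 FPKM against 31.7 and 12.0, with 8 of 12 above 0, 4 of these with unadjusted p under 0.05, and 4 of 12 below 0. Higher with unadjusted p under 0.05 were Alpi, Fabp2, Sis and Apoa4. Alpi was at 7.39 and 5.21 FPKM in Dhps cko and 2.26 and 2.17 in Dhps flox. The 4 below 0 were Krt8, Epcam, Cdh1 and Cldn7, each highest in Dhps flox 1, where Krt8 was at 8.85 FPKM against 0.90 to 2.63 in the other libraries. Erythroid markers summed to 731 and 878 FPKM against 606 and 912, with 8 of 8 above 0 and none at unadjusted p under 0.05. All 4 genes of the Y chromosome on the sex-linked list (Uty, Kdm5d, Eif2s3y and Ddx3y) were lower in Dhps cko, with Eif2s3y at 4.40 and 5.01 FPKM against 10.7 and 9.29, and Xist was at 27.5 and 20.3 against 16.3 and 17.2. None of these 5 genes passed the adjusted threshold (adjusted p 0.348 to 0.626). Xist and all 4 of these Y genes were measured in every library, so each library held transcripts of both sexes. How many pups a library held was not tested. The labels do not give the sex of the pups, and any difference in sex makeup cannot be told apart from genotype. Over the 10622 genes at a mean of 1 FPKM or above with a GENCODE length, median fold changes were lower for longer transcripts, from a median of 0.10 in the shortest of 5 equal groups to -0.06 in the longest, and Cpt1a lay in the next longest such group, where the median was -0.02.

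The acyl-CoA dehydrogenases, which take the first electrons from the chain, overlapped between genotypes in all 3 cases. Acadvl (ENSMUSG00000018574), the very long chain enzyme of the inner membrane, was at 12.28 and 11.57 FPKM in Dhps cko and 12.16 and 11.57 in Dhps flox. Its level in Dhps cko was 100.5% of that in Dhps flox, with an interval of 88.0% to 115% (adjusted p = 0.994). Acadl (ENSMUSG00000026003), the long chain enzyme, was the most abundant of the 10 genes, at 27.55 and 26.11 FPKM in Dhps cko and 27.95 and 26.89 in Dhps flox. This was 97.9% of the Dhps flox level, interval 87.5% to 109% (adjusted p = 0.952). Acadm (ENSMUSG00000062908), the medium chain enzyme, was at 8.77 and 9.29 FPKM in Dhps cko and 9.93 and 8.91 in Dhps flox, or 95.9% of the Dhps flox level with an interval of 81.8% to 113% (adjusted p = 0.931). Within a library Acadl was 2.24 and 2.26 times Acadvl in Dhps cko and 2.3 and 2.32 times in Dhps flox, so the Dhps cko ratios were both lower, and it was between 2.81 and 3.14 times Acadm, with overlap.

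The trifunctional protein carries out the later steps on long chains, with hydratase and hydroxyacyl-CoA dehydrogenase activity in the alpha subunit and thiolase activity in the beta subunit, which assemble in equal numbers. Hadha (ENSMUSG00000025745), the alpha subunit, was at 12.49 and 12.14 FPKM in Dhps cko and 12.80 and 12.25 in Dhps flox. The groups overlapped, at 98.3% of the Dhps flox level with an interval of 87.0% to 111% (adjusted p = 0.967). Hadhb (ENSMUSG00000059447), the beta subunit, was at 3.65 and 3.52 FPKM in Dhps cko and 3.54 and 3.22 in Dhps flox, or 106.1% with an interval of 87.1% to 129% (adjusted p = 0.912). It was the lowest of the 10 genes in every library, although its start lies 86 bases from that of Hadha across the GC-rich gap printed above. The Hadha to Hadhb ratio was 3.42 and 3.45 in Dhps cko and 3.62 and 3.8 in Dhps flox. Both Dhps cko ratios were below both Dhps flox ratios, a separation for which the exact permutation test gave p = 0.33, the smallest it can give. In all, 9 ratios within a library were computed, and none can reach a lower p. Of these, 6 had both Dhps cko values below both Dhps flox values, among them Etfa to Etfdh, where the nearest values were 3.007 and 3.009 and differed by less than the rounding of FPKM allows. Cpt1a to Cpt2, to Cpt1b and to the other 9 genes were also among the 6, and share the Cpt1a value, so they repeat the same difference. No background share was computed for ratios. FPKM depend on the transcript model, which was not given in the sources used here, so a level between genes is less certain than a level of 1 gene between libraries.

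The electron transfer flavoprotein, a dimer of Etfa and Etfb that receives electrons from the dehydrogenases, and Etfdh, which passes them to ubiquinone, differed more among themselves than between genotypes. Etfa (ENSMUSG00000032314) was at 12.99 and 12.56 FPKM in Dhps cko and 12.82 and 12.93 in Dhps flox, 99.2% of the Dhps flox level with an interval of 88.2% to 112% (adjusted p = 0.988). Etfb (ENSMUSG00000004610) was at 26.96 and 25.04 FPKM in Dhps cko and 25.70 and 24.05 in Dhps flox, 104.5% with an interval of 91.9% to 119% (adjusted p = 0.893). Both subunits overlapped between genotypes, and Etfb was between 1.86 and 2.08 times Etfa in every library. Etfdh (ENSMUSG00000027809) was at 4.32 and 4.71 FPKM in Dhps cko and 4.26 and 3.86 in Dhps flox. Both Dhps cko values were above both Dhps flox values at 111.2% of the Dhps flox level with an interval of 91.3% to 135% (adjusted p = 0.82). The Etfa to Etfdh ratio was 3.01 and 2.67 in Dhps cko and 3.01 and 3.35 in Dhps flox.

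**Figure D2:**
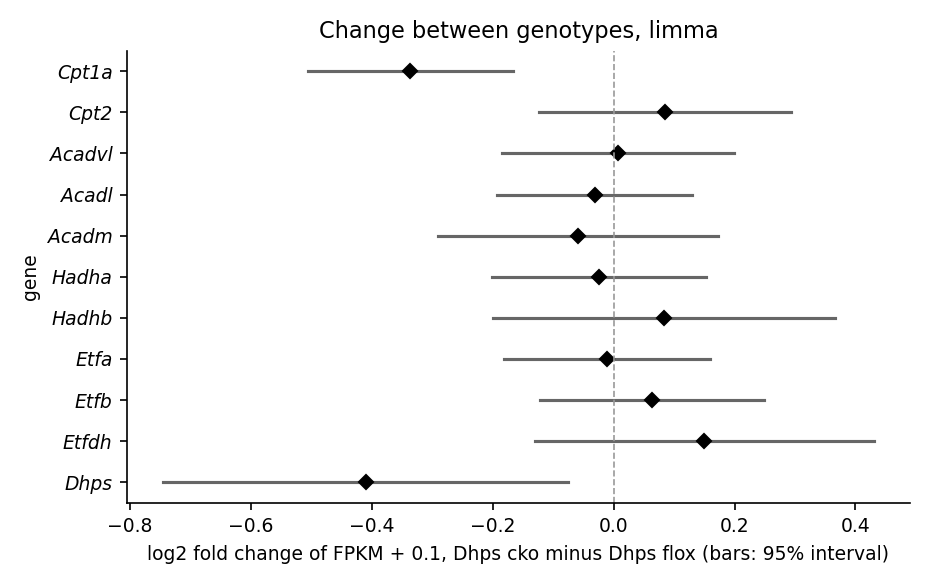
Log2 fold change of FPKM + 0.1, Dhps cko minus Dhps flox (horizontal axis), for the 10 fatty acid oxidation genes and for Dhps, with diamonds for the limma estimate and bars for its 95% interval. The interval includes 0 for 9 of the 10 genes, and the estimates of Cpt1a (-0.34) and Dhps (-0.41) lie to the left.

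Apart from Cpt1a, the 9 other genes were between 95.9% and 111.2% of their Dhps flox level, and their adjusted p ranged from 0.82 to 0.994. The lowest bound of their 95% intervals was 81.8%, for Acadm, and the highest was 135%, for Etfdh. For each gene, changes within its own interval could not be told from none with 2 libraries per genotype. On the log2 scale their median was 0.007. A p that misses the threshold does not show that the genotypes were alike.

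In level, the order over the 4 libraries was Acadl, Etfb, Cpt1a, Etfa, Hadha, Acadvl, Acadm, Cpt2, Etfdh and Hadhb, on the FPKM scale. Acadl had a mean of 27.1 FPKM and Hadhb of 3.48, a 7.79-fold range, and the 10 genes stood between percentiles 60.7 and 92.0 of the mean FPKM over all genes tested. The ranges of the 4 libraries overlapped for Acadl and Etfb, for Etfa and Hadha, for Hadha and Acadvl, and for Acadm and Cpt2, so by their ranges these neighbours did not differ beyond their spread. Compared within each library, however, Acadl was above Etfb, Etfa above Hadha and Hadha above Acadvl in all 4, and Acadm above Cpt2 in 3 of 4. The ranges of Etfb and Cpt1a, Cpt1a and Etfa, Acadvl and Acadm, Cpt2 and Etfdh, and Etfdh and Hadhb did not overlap. Cpt1a kept its place between Etfb and Etfa in all 4 libraries. The summed FPKM of the 10 genes was 135.69 and 131.61 in Dhps cko and 139.58 and 134.86 in Dhps flox, and overlapped.

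Some of the 10 genes share bases with neighbours, which limits what their values count. Acadvl (chromosome 11, 70010183 to 70015411, minus strand) shares 1151 exon bases, 42.9% of its own, with Dvl2 on the opposite strand, and Dvl2 was at 1.64 to 1.94 FPKM. Whether the counting used strand was not given in the sources used here, so reads from the shared stretch cannot be assigned. Etfb (chromosome 7, 43444083 to 43457800, plus strand) shares 617 exon bases, 53.0% of its own, with the overlapping gene model Gm45233, listed at 0 to 0.09 FPKM, and 61 with Mir7051, listed at 0 to 0.07. Etfdh (chromosome 3, 79603788 to 79629500, minus strand) starts 421 bases from 4930579G24Rik on the opposite strand and shares 278 exon bases with it, 3.70% of its own. That neighbour was at 6.17 and 5.53 FPKM in Dhps cko and 6.04 and 5.71 in Dhps flox (log2 fold change -0.01). Hadha shares 75 exon bases, 0.86% of its own, with Garem2, at 0.01 to 0.05 FPKM. The exons of Cpt1a, Cpt2, Acadl, Acadm, Hadhb and Etfa overlapped those of no other GENCODE M21 gene. Acadl lies on chromosome 1 (66830839 to 66863277), Acadm on chromosome 3 (153922357 to 153944632) and Etfa on chromosome 9 (55454508 to 55512243), all on the minus strand.

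Few other genes of the pathway passed a threshold between genotypes. Over 9 lists of 130 genes, 126 were in the data and 111 passed the low-value filter. By adjusted p under 0.05 the count was 0, and by unadjusted p under 0.05 it was 1 of 111, or 0.901%, against the 7.0% over all genes. The gene was Fabp4, a fatty acid binding protein of fat cells and macrophages, at 0.81 and 0.79 FPKM in Dhps cko and 0.48 and 0.40 in Dhps flox (log2 fold change 0.74, SE 0.23, adjusted p = 0.629). Both Dhps cko values were above both Dhps flox values for 18 genes, 16.2%, and below them for 15, 13.5%, against 20.0% and 16.0% over all genes. On the log2 scale the median of the 111 was 0.02, and -0.01 after rescaling to TPM, where the median of all genes was -0.02.

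**Figure D3:**
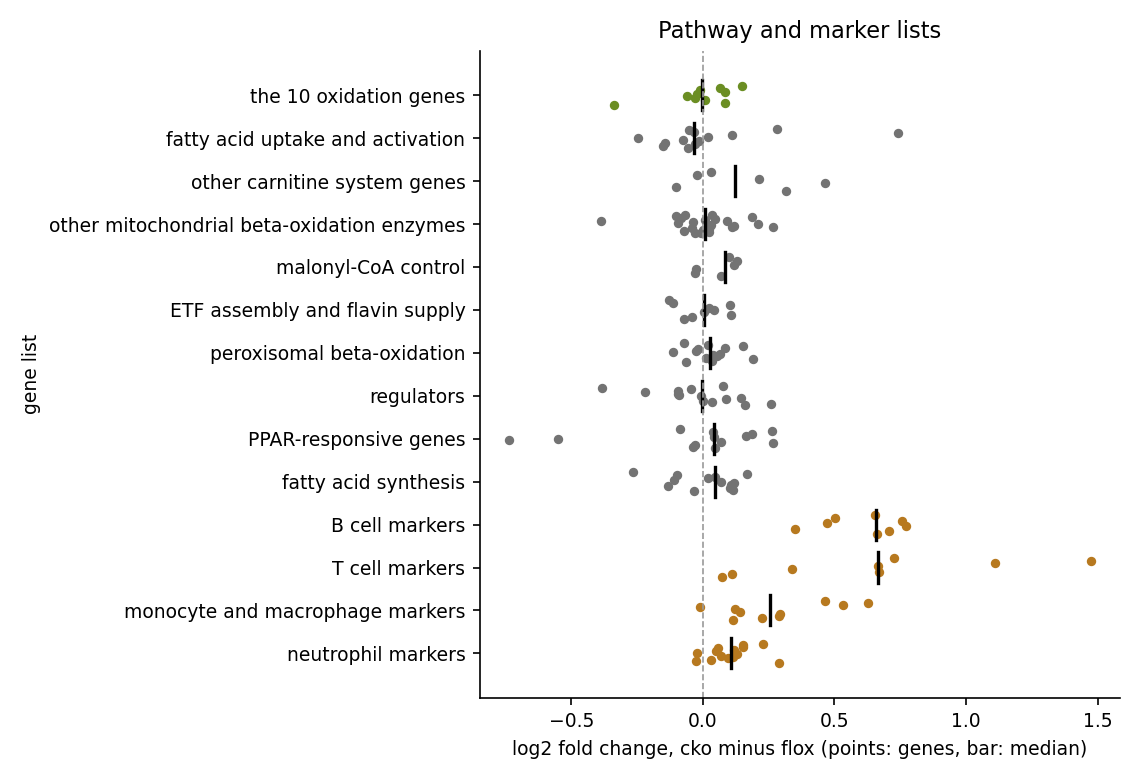
Log2 fold change of single genes (points), Dhps cko minus Dhps flox (horizontal axis), for the 10 fatty acid oxidation genes (green), 9 pathway lists (gray) and 4 marker lists (brown), with a black bar at the median of each list. The medians of the pathway lists lie between -0.03 and 0.12, and those of the B cell and T cell markers at 0.66 and 0.67.

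By step, the fatty acid uptake and activation list had a median of -0.03 over 13 genes, led in level by Slc27a4, a fatty acid transport protein, at 122 and 127 FPKM in Dhps cko and 124 and 128 in Dhps flox. Acsl1, which activates long chain fatty acids to acyl-CoA, was at 39.9 and 38.4 against 40.2 and 42.3. The other carnitine genes had a median of 0.12 over 6, with Crat and Crot, the carnitine acyltransferases for short and medium chains, at 7.6 to 10.5 FPKM. Malonyl-CoA control genes had a median of 0.08 over 6, with the AMP-activated kinase subunits Prkag1 and Prkab1 the highest. Prkag1 was at 45.6 and 46.1 FPKM in Dhps cko and 42.7 and 41.2 in Dhps flox (adjusted p = 0.74). The summed level of that list was 135 and 136 FPKM against 126 and 129. Genes known to respond to PPAR receptors also summed higher in Dhps cko, at 191 and 193 FPKM against 182 and 188. No gene of either list had an unadjusted p under 0.05, and the sums of the other pathway lists overlapped. Acaca, which makes malonyl-CoA, was at 0.89 to 1.08 FPKM.

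The 23 other mitochondrial beta-oxidation enzymes had a median of 0.0062, with 13 above 0 and 10 below, and none had an unadjusted p under 0.05. Hsd17b10, a short chain hydroxyacyl-CoA dehydrogenase, and the thioesterase Acot9 were the highest, at 16.0 to 17.9 and 14.2 to 16.3 FPKM. Levels of the short chain enzymes differed widely. Hadh, another short chain hydroxyacyl-CoA dehydrogenase, was at 0.93 and 0.77 FPKM in Dhps cko and 0.90 and 0.52 in Dhps flox, and Echs1, the short chain hydratase, at 2.01 and 2.56 against 2.08 and 2.11. Hadha, which has both activities for long chains, was 13.4 to 23.6 times Hadh within a library. The short chain dehydrogenase Acads was at 5.38 to 5.74 FPKM and the thiolase Acaa2 at 10.5 to 11.4. Hadh, Echs1, Acads and Acaa2 were named for their place in the spiral after their values were seen.

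**Figure D4:**
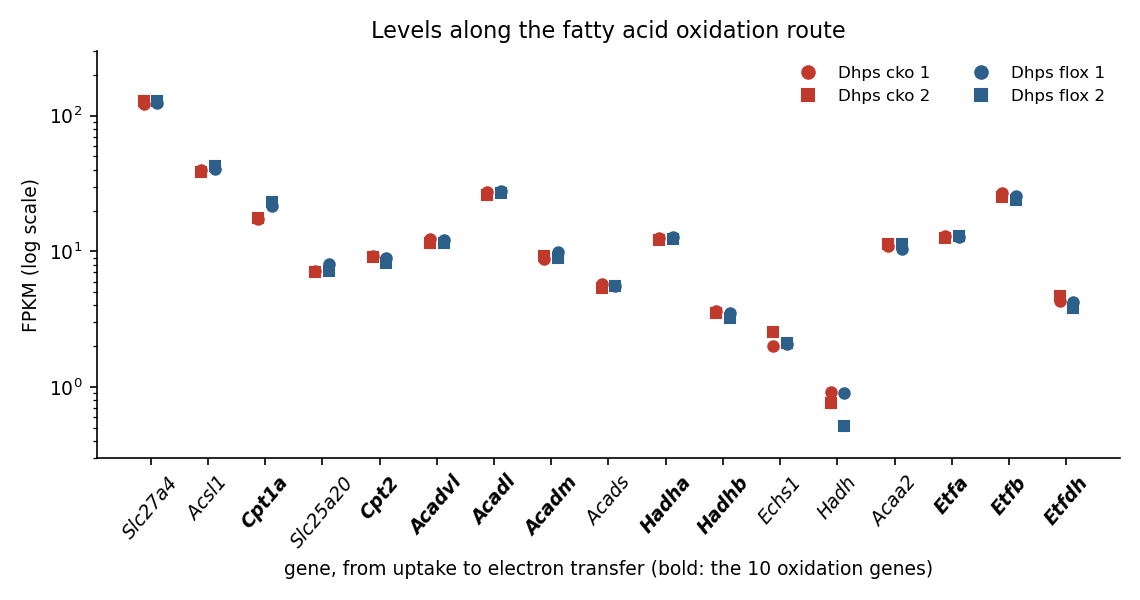
FPKM on a logarithmic vertical axis for 17 genes along the route from uptake (left) to electron transfer (right), with circles and squares for replicates 1 and 2 of Dhps cko (red) and Dhps flox (blue), and the 10 fatty acid oxidation genes in bold. The level runs from 122 to 128 FPKM for Slc27a4 down to 0.52 to 0.93 FPKM for Hadh.

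The ETF assembly and flavin supply list, which holds genes for flavin transport and cofactor synthesis, modifiers of the flavoprotein and other dehydrogenases that pass electrons to it, had a median of 0.005 over 9 genes. Etfrf1, a regulatory factor of the flavoprotein, was at 6.54 and 8.27 FPKM in Dhps cko and 7.85 and 7.30 in Dhps flox, and Rfk, riboflavin kinase, at 7.78 and 7.16 against 8.04 and 6.88, so both overlapped. Peroxisomal beta-oxidation genes had a median of 0.03 over 14, with Scp2 at 62.4 to 70.9 FPKM.

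Regulators of the pathway had a median of -0.004 over 14 genes, led by the co-repressor Ncor1 at 32.7 to 36.3 FPKM and Rxrb, a partner of the PPAR receptors, at 12.2 to 14.3. Ppara, the receptor known to drive these genes in liver, was at 0 to 0.02 FPKM and its coactivator Ppargc1a at 0.01 to 0.06, both below the filter. Ppard was at 3.28 and 3.24 FPKM in Dhps cko and 2.75 and 3.08 in Dhps flox (adjusted p = 0.82), and these 3 were named after their values were seen. Genes known to respond to PPAR receptors had a median of 0.04 over 13, with the uncoupling protein Ucp2 at 106 and 104 FPKM against 98.4 and 102, and the lipid droplet protein Plin2 at 35.3 and 36.2 against 36.4 and 36.5. The fatty acid synthesis list, the opposing pathway, had a median of 0.05 over 13, with Acly, which makes cytosolic acetyl-CoA, at 51.6 to 57.4 FPKM and the elongase Elovl1 at 25.3 to 29.2.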

How the data were processed

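The deposited values are FPKM per gene, which the authors made by trimming with cutadapt, aligning with HISAT2 to mm10 and estimating with StringTie and ballgown, rounded to 2 decimals. The annotation, the strand setting and any scaling between libraries were not given in the sources used here. From these FPKM, log2(FPKM + 0.1) was compared between genotypes with limma 3.58.1 in R 4.3.3 (lmFit, eBayes with a mean-variance trend) for the 17948 genes whose mean reached 0.1 FPKM, with Benjamini-Hochberg adjustment and a threshold of 0.05. A fold change on this scale understates that of low genes. Whole reads could not be recovered from the FPKM, so no count model was used, and depth is approximate. Coordinates and transcript lengths came from GENCODE M21 (GRCm38), which held 28511 of the 28585 identifiers, and promoter windows from RefSeq (GRCm38.p6), matched by symbol for 10 of 10 genes. The members and lists were chosen with earlier results of these data known. Named were the 10 genes, Dhps, the 2 highest genes of each pathway list and those with unadjusted p under 0.05, neighbours starting within 1000 bases on the opposite strand or sharing exons, and the highest genes of marker lists; 1 gene that this rule names is not reported here. Acaca and the marker genes Ly6g, Cebpe, Krt8, Epcam, Cdh1, Cldn7, Alpi, Fabp2, Sis, Alb, Hnf4a, Fgb, Cidea, Fabp3 and Ucp1 were named in addition, after their values were seen. Intervals are at 95% and cover the spread between libraries; counting errors cover counting only. The limma script was tested on simulated data. Alternatives were the pseudocount, the filter, 3 other scalings, the variance trend, a replicate block and each library left out.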

Additional observations from a re-analysis of the deposited data

How the results depend on the processing

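Of 130 fold changes of the 10 genes under 13 alternatives, 121 kept their direction and their side of the threshold, none passed it, and 9 changed sign, each within 0.0356 of 0. These were Acadvl with TPM (-0.025), size factors (-0.0049), quantile normalization (-0.0003), without Dhps cko replicate 1 (-0.0356) and without Dhps flox replicate 2 (-0.0286), Acadl and Etfa without Dhps cko replicate 2 (0.0071 and 0.0127), and Acadm and Hadha without Dhps flox replicate 1 (0.0185 and 0.0074). Without each library in turn, Acadl ranged from -0.0701 to 0.0071, Acadm from -0.1362 to 0.0185, Acadvl from -0.0356 to 0.0496, Etfa from -0.0354 to 0.0127 and Hadha from -0.0554 to 0.0074. The same range was 0.0259 to 0.1435 for Cpt2, 0.0103 to 0.1165 for Etfb, 0.0175 to 0.1503 for Hadhb and 0.0807 to 0.2195 for Etfdh, so these 4 kept their sign and moved by over 1.5 times. Cpt1a ranged over all alternatives from -0.38 to -0.29, and the median of the 10 genes from -0.0342 to 0.0312.

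Over all genes, limma called 1 gene as reported. It called 0 with a pseudocount of 0.01 (1216 at unadjusted p under 0.05), 0 with no filter (1675), and 0 without each library in turn (719 to 1609). It called 4 at a mean of at least 1 FPKM and 2 with TPM or quantile normalization. The count of the 10 genes higher in both Dhps cko libraries, 2 as reported, was 1 with TPM or size factors and ranged from 2 to 6 without each library, with 6 without Dhps cko replicate 2 and 4 without Dhps flox replicate 1. With 3 libraries the rule is weaker, and 32.3% to 37.1% of all genes met it, against 20.0% with 4. The causes of the other moves were not tested. Leaving out a library leaves 1 in its genotype, whose spread is then assumed to be that of the other.

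With a replicate block, 0 genes were called (1082 at unadjusted p under 0.05), and the unadjusted p of Cpt1a was 0.0118. Same-numbered libraries did not deviate together (r = -0.0567 over 10629 genes), and the labels give no shared litter or day for a number, so the numbers were not taken as pairs. Depth is known only approximately, and 2 libraries per genotype limit the precision.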
